A study of Oryza sativa with 12 samples.

Results

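Roots of the rice line Os1400-12SIII were compared with WT roots of the cultivar Nipponbare, both from 3-wk-old seedlings kept for 2 wk in hydroponic culture with 0.004 mM phosphate (low-Pi), with 3 libraries per genotype. Os1400-12SIII is a single CRISPR/Cas9 line in the Nipponbare background, disrupted in Os01g0701400 (OsMAX1-1400), and its plants at 0.4 mM phosphate (+Pi) and WT plants at +Pi, again 3 libraries each, serve below as a second, separate comparison of the same genotypes. The comparison covers the 15477 genes with at least 10 counts in each of the 6 low-Pi libraries, out of 31952 genes in the low-Pi count table. All libraries are from root tissues, and the study calls its replicates biological without saying whether the libraries of a group came from separate cultures, so the p-values measure the spread between these libraries. In such bulk samples, fewer cells of a type and less RNA per cell cannot be told apart.

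Strigolactones are carotenoid-derived hormones that roots make and release when phosphate is scarce, and that shape root and shoot architecture and attract mycorrhizal fungi. OsMAX1-1400 is a cytochrome P450 that hydroxylates a canonical strigolactone into orobanchol, so Os1400 mutants lack the last step of this branch. Phosphate-starved plants save and scavenge phosphate, for which they rely on SPX proteins as intracellular Pi sensors, on high-affinity transporters, on phosphatases, and on metabolic bypasses that use pyrophosphate or spare ATP. Root growth itself rests on dividing and elongating cells, which need histones, microtubules, cell wall enzymes, and auxin transport and signaling.

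The disrupted gene gave no check of the genotype labels, since Os01g0701400 was listed at 0 FPKM (fragments scaled by gene length and library) in all 12 libraries and has no row among the counts. Total counts were 29596562 to 32984885 in Os1400 and 28271749 to 32613875 in WT at low-Pi, but Os1400 libraries detected 28082 to 30375 genes, against 17711 to 22077 genes in WT libraries. WT libraries at +Pi detected 27191 to 28572 genes. Genes with only 1 to 9 counts numbered 217 to 238 per WT low-Pi library. Their number was 1513 to 3413 per Os1400 low-Pi library and 595 to 1733 per WT +Pi library. Whether this shortage of low counts came from the WT plants or from their libraries was not tested. Of the 16475 genes left out, 8969 had at least 10 counts in all 3 Os1400 libraries but not in all 3 WT libraries, 69 the reverse, and 7437 neither. The comparison thus says nothing of most genes with few or no counts in the WT low-Pi libraries. The genes closest to the limit were 168 members with a lowest count of 10 to 19 and 77 left-out genes with a lowest count of 5 to 9. The root gene RCc3 was present in every low-Pi library, from 1892 to 2889 FPKM in Os1400 and from 1355 to 2736 FPKM in WT. The silicon transporter LSI1 of the root exodermis and endodermis had 396, 180.2, and 499.7 FPKM in Os1400, against 719, 507, and 4395 FPKM in WT, and its partner LSI2 had 271, 123, and 333 FPKM in Os1400, against 258, 155, and 926 FPKM in WT, so that WT replicate 3 stood apart for both. The mycorrhiza-induced transporter PT11 was at 0 in all low-Pi libraries. Photosynthesis genes as markers of shoot tissue (26 genes) summed to 51.8 to 67.5 FPKM in Os1400 and 70.0 to 128 FPKM in WT, with 8 to 10 of them at 0 in Os1400 and 20 to 21 at 0 in WT, and their part in the results was not tested.

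A trend with gene length ran through the comparison. Among the shortest 10% of genes (121 to 746 bases), the median log2 fold change, Os1400 over WT, was -0.62, and among the longest 10% (3187 to 9536 bases) it was 0.38. At +Pi, the corresponding medians were -0.09 and 0.09. The trend lay in the 3 WT low-Pi libraries, in which the shortest 20% of genes stood 0.33 to 0.46 above its mean over all 12 libraries (log2 scale) and the longest 20% stood 0.19 to 0.32 below it, while the other 9 libraries lay between -0.15 and 0.19. Since every WT low-Pi library and no Os1400 low-Pi library carried it, the trend and the genotype effect at low-Pi cannot be told apart. The main counts below are therefore given also with a length adjustment, a smooth curve of each library's deviation on gene length that entered the fit. With it, the medians of the 10 length classes lay between -0.09 and -0.03. This adjustment was added after the trend was seen.

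**Figure D1:**
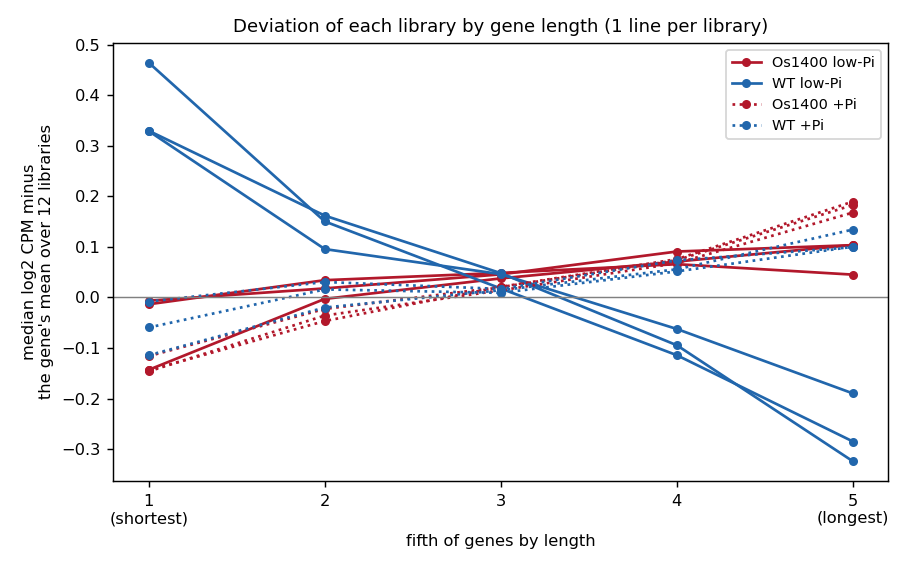
Median deviation of log2 CPM (counts scaled to library size) from each gene's mean over 12 libraries, on the y axis, in 5 classes of genes by length, on the x axis, with 1 line per library (red Os1400, blue WT, solid low-Pi, dotted +Pi). The 3 WT low-Pi lines lie between 0.33 and 0.46 in the shortest class and between -0.32 and -0.19 in the longest, and the other 9 lines stay between -0.15 and 0.19.

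Os1400 roots at low-Pi had 1073 up-regulated genes (6.93% of those tested) and 1480 down-regulated genes (9.56%), called by edgeR's quasi-likelihood test at a Benjamini-Hochberg adjusted p of 0.05 or less. Here and below, rose and fell mean higher and lower in Os1400 than in WT at the same supply. They do not say which genotype changed between supplies. The absolute log2 fold changes of the called genes had a median of 1.5 and ran from 0.65 to 6.65. In 2545 of the called genes the 3 libraries of each genotype did not overlap, and over all genes tested every Os1400 library was above every WT library in 21.5% and below in 20.2%. With the length adjustment, 859 genes (5.55%) were up-regulated and 1312 (8.48%) down-regulated, of which 715 and 1111 were among the calls without it. Genes called up had a median length of 2142 bases and genes called down of 1181 bases, against 1605 bases over all genes tested. The fit gives each gene 1 dispersion for both genotypes, although the WT low-Pi libraries spread more than the Os1400 low-Pi libraries. What this does to the calls was not tested. The number of calls depended on single libraries. Without Os1400 replicate 1, 2, or 3 it was 64, 124, and 97 up and 104, 225, and 161 down, although 1538 to 1644 and 2009 to 2214 genes passed 0.05 before adjustment, and without WT replicate 2 it was 1684 up and 2110 down. Only 157 genes, 64 up and 93 down, were called in each of these 6 fits, and all of them also passed with the length adjustment. Under other tools, normalizations, and filters, the numbers ranged from 717 to 3165 up and from 557 to 3027 down. The surplus of down-regulated genes did not hold in all of them. With limma-voom, 1512 genes were up and 1417 down. Other filters also gave more genes up than down, with 3165 up and 1136 down by filterByExpr and 717 up and 557 down without a filter.

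The 10 up-regulated genes with the smallest p include enzymes, a cochaperone, a splicing factor, and auxin genes. Os09g0553200 (UDP-glucose pyrophosphorylase 1, which makes UDP-glucose, the sugar donor for sucrose and cell wall polysaccharides) on chromosome 9 from 21917324 to 21922399 had 150.1, 120.5, and 161 CPM in the Os1400 libraries, against 6.89, 8.65, and 10.8 CPM in the WT libraries. The genotypes were far apart, and the log2 fold change was 4.03 with an SE of 0.29 and an edgeR adjusted p of 0.00459. Os03g0712700, which the authors' table names fructose-6-phosphate 1-phosphotransferase but describes with phosphoglucomutase domains, so that its place in sugar phosphate metabolism is uncertain here, had 152, 136, and 194 CPM in Os1400 and 21.1, 28.4, and 18.3 CPM in WT (log2 fold change of 2.83, SE 0.27). Os03g0648400 (DnaJ domain protein A4, a cochaperone of HSP70) had 136, 142, and 182 CPM in Os1400 and 18.4, 18.4, and 15.5 CPM in WT, a log2 fold change of 3.14 (SE 0.24). None of the WT libraries came near the lowest Os1400 library for these genes.

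Both an enzyme and a repressor of the auxin pathway were in this group. Os01g0169800 (FISH BONE), on chromosome 1 from 3577473 to 3581859, encodes a tryptophan aminotransferase of auxin biosynthesis in rice, and had 154, 154, and 157 CPM in Os1400 against 20.9, 23.6, and 30.3 CPM in WT. Its log2 fold change was 2.64 (SE 0.24), and the 3 Os1400 libraries had an SD of 1.65 CPM. Os12g0601400 (IAA31), a member of the AUX/IAA family of repressors of auxin response, had 205, 215, and 262 CPM in Os1400 and 41.3, 25.9, and 21.2 CPM in WT, and rose by a log2 fold change of 2.95 (SE 0.30). Os11g0636900 (U2AF65A, the large subunit of the factor that recognizes the end of introns) had 83.9, 100.4, and 80.6 CPM in Os1400 and 13.8, 16.3, and 18.0 CPM in WT. The metal-binding protein gene Os01g0149800 (metallothionein 2A) had 172, 126, and 169.5 CPM in Os1400 and 26.6, 30.2, and 25.3 CPM in WT, and at 654 bases it was among the short genes, so that its log2 fold change of 2.51 became 2.97 with the length adjustment. Os06g0558700 (with an RNA-binding domain of poly(A) polymerases), Os01g0547133 (a domain of unknown function), and Os04g0586200 (an FCS-type zinc finger) rose by log2 fold changes of 2.17, 2.90, and 2.31.

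The down-regulated genes with the smallest p included chromatin, cell wall, and mitochondrial genes. Os03g0390600 (H3), on chromosome 3 from 15645609 to 15648150, codes for the core histone H3 around which DNA is wound, and had 169, 167, and 153 CPM in Os1400, against 983, 785, and 991 CPM in WT. All WT libraries were thus above all Os1400 libraries, and the log2 fold change was -2.50 with an SE of 0.21 and an edgeR adjusted p of 0.00521. A second histone H3 gene, Os04g0450800 (H3.2A), had 47.5, 47.3, and 42.2 CPM in Os1400 and 222, 197, and 247 CPM in WT (log2 fold change of -2.28). Os09g0553100, annotated with a histone fold, had 264, 277, and 185 CPM in Os1400 and 1489, 1077, and 1447 CPM in WT (log2 fold change of -2.47, and -1.95 with the length adjustment). It starts at position 21912086 of chromosome 9, next to the UDP-glucose pyrophosphorylase gene above, and the pair moved in opposite directions. Reads of histone genes can be shared between near-identical copies, so the level of a single copy is uncertain.

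Os04g0450701 (arabinogalactan protein 4, a cell wall glycoprotein), a neighbor of the H3.2A gene on chromosome 4, had 168, 168, and 159 CPM in Os1400 and 741, 585, and 717 CPM in WT. At 554 bases it is a short gene, and its log2 fold change of -2.05 was -1.50 with the length adjustment. The mitochondrial ATP synthase 6 kDa subunit gene Os03g0606200 had 527, 562, and 448 CPM in Os1400 and 2337, 1943, and 2128 CPM in WT (log2 fold change of -2.06, and -1.62 with the length adjustment). A secreted enzyme and further redox proteins followed. Os06g0695500 (class III peroxidase 90, of a family that cross-links and loosens walls) fell by 2.38 on the log2 scale, with 30.9, 34.6, and 25.6 CPM in Os1400 and 180.1, 122, and 173 CPM in WT. Os07g0105000 (uclacyanin-like protein 20, a blue copper protein) fell by 2.38 and Os01g0851600 (with a steroid dehydrogenase domain) by 1.92 on the same scale. Os05g0475400 (an alanine:glyoxylate aminotransferase-like protein) had 19.7, 19.8, and 23.6 CPM in Os1400 and 161, 117, and 140.2 CPM in WT (log2 fold change of -2.73). Os02g0105400 (lactate dehydrogenase, which regenerates NAD+ in fermentation) had 10.2, 12.1, and 7.08 CPM in Os1400 and 77.7, 55.1, and 77.3 CPM in WT (log2 fold change of -2.84). The 20 genes of smallest p kept their calls in every one of the leave-one-out fits, and with the length adjustment. They were picked by p in these same libraries, so this is no independent support.

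**Figure D2:**
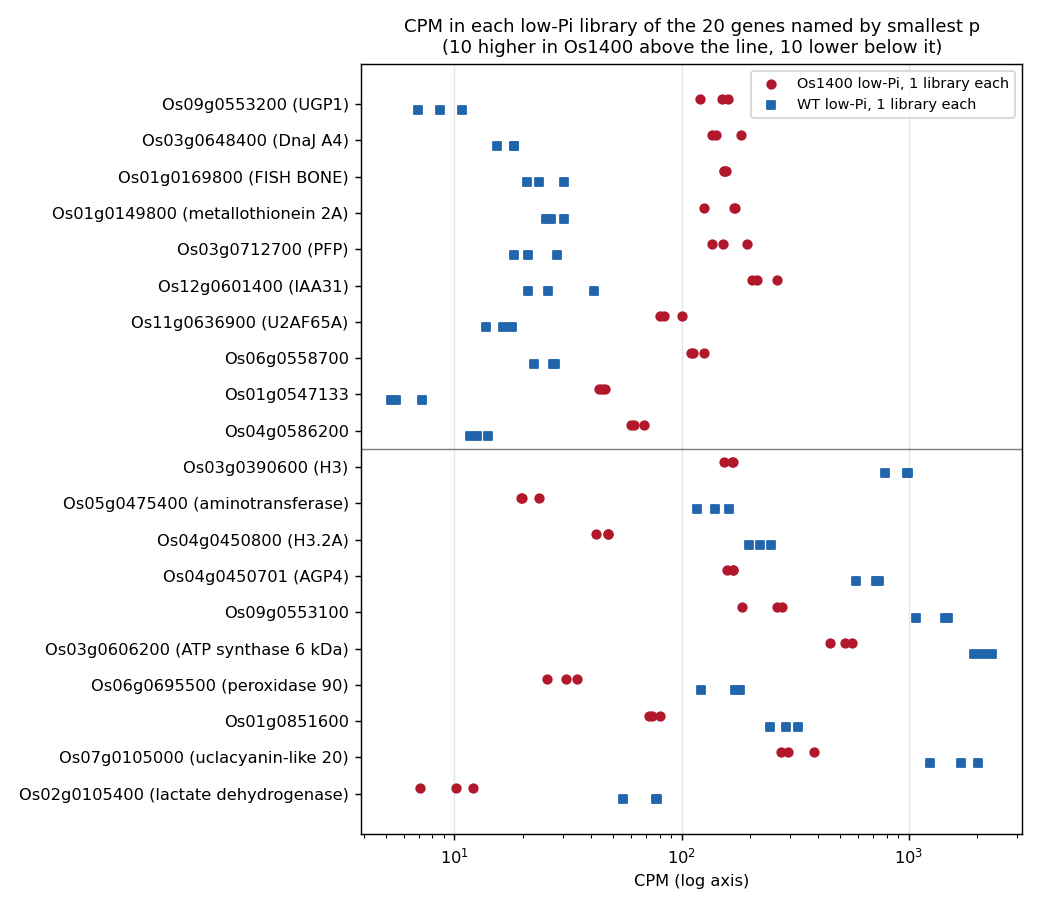
CPM on a log axis in each of the 6 low-Pi libraries for the 20 genes of smallest p, with Os1400 libraries as red circles and WT libraries as blue squares below them in each row. For every gene the 3 Os1400 points and the 3 WT points do not overlap, from 120.5 CPM and more in Os1400 against 10.8 CPM and less in WT for UGP1 to 12.1 CPM and less in Os1400 against 55.1 CPM and more in WT for lactate dehydrogenase.

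Among genes with a name or domain in the files, the largest decreases were those of the following 5 genes. Os06g0514100 (thionin 7, an antimicrobial peptide) had 23.6, 12.5, and 3.56 CPM in Os1400, against 506, 499, and 561 CPM in WT, a log2 fold change of -5.30 (SE 0.64, and -6.02 without Os1400 replicate 1). Os07g0416900 (fatty acid desaturase 2-3, which forms polyunsaturated fatty acids) had 1.35, 0.428, and 0.889 CPM in Os1400 and 51.5, 13.3, and 69.0 CPM in WT (log2 fold change of -5.65, SE 0.75). Os10g0416500, annotated as pathogenesis-related protein 8 and a chitinase, which cleaves fungal chitin, had 9.56, 3.22, and 6.64 CPM in Os1400 and 209.6, 69.7, and 183 CPM in WT. Os08g0189700 (germin-like protein 8-8) had 1.63, 0.456, and 1.56 CPM in Os1400 and 25.4, 13.1, and 31.8 CPM in WT. Their log2 fold changes were -4.57 and -4.27. WT replicate 2 was the lowest WT library for the desaturase, the chitinase, and the germin-like gene. The desaturase had 43, 15, and 28 counts in the Os1400 libraries and the germin-like gene 52, 16, and 49. These lie near the limit of 10 counts, so the size of both decreases is uncertain. Os03g0365800 (GDSL esterase/lipase 49) had 20.001, 3.42, and 33.7 CPM in Os1400 and 171, 32.9, and 1224 CPM in WT, so that WT replicate 3 carried most of its log2 fold change of -4.64 (SE 1.31), and without a single library its log2 fold change lay between -5.35 and -2.44 with an adjusted p of up to 0.139 from edgeR.

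Among genes with a name or domain in the files, the largest increases besides UGP1 were those of Os05g0208000 (a mitochondrial carrier protein), with 115, 107, and 111 CPM in Os1400 and 5.95, 15.6, and 2.30 CPM in WT, and Os10g0563200 (an armadillo repeat protein), with 43.1, 44.1, and 49.9 CPM in Os1400 and 2.24, 8.13, and 1.92 CPM in WT. Both had a wide spread in WT, where replicate 2 was the highest library, and their log2 fold changes were 3.80 (SE 0.62) and 3.48 (SE 0.59), or 4.72 and 4.44 without that library. Os06g0127250, which has neither a name nor a domain in the files, rose by 3.95 with 51.4, 40.3, and 55.0 CPM in Os1400 and 5.22, 2.51, and 1.75 CPM in WT. Os06g0207500 (trichome birefringence-like 32, of a family that acetylates wall polysaccharides) had 22.5, 24.0, and 23.8 CPM in Os1400 and 1.67, 2.99, and 1.92 CPM in WT (log2 fold change of 3.41). Os09g0557800 (of the endomembrane protein 70 family) had 71.4, 63.5, and 85.7 CPM in Os1400 and 5.52, 3.95, and 12.6 CPM in WT (log2 fold change of 3.32, and 3.94 without WT replicate 3). Of these increases, the adjusted p from edgeR of Os10g0563200 reached 0.0547 when single libraries were left out, and the others kept their calls.

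Further genes were singled out after their values were seen, from the 157 that kept their call in all 6 leave-one-out fits. Cell wall glycoproteins and secreted peptides were among the decreases. Os07g0590700 (arabinogalactan protein 13) had 1046, 1013, and 855 CPM in Os1400 and 4732, 3257, and 5326 CPM in WT, Os03g0188500 (arabinogalactan protein 3) had 51.9, 58.4, and 50.8 CPM in Os1400 and 645, 281, and 249 CPM in WT, and both fell, with log2 fold changes of -2.19 and -2.87. Os01g0357900 (rapid alkalinization factor 4, a peptide that signals through receptor kinases at the wall) had 333, 283, and 260.0 CPM in Os1400 and 1845, 903, and 1998 CPM in WT (log2 fold change of -2.44). Os12g0555000 (a root-specific PR10 protein) had 13.2, 4.68, and 15.4 CPM in Os1400 and 155, 149, and 266 CPM in WT (log2 fold change of -4.10). The increases included Os02g0739600 (the E1 alpha subunit of pyruvate dehydrogenase, the entry to the citric acid cycle), with 107, 91.3, and 119 CPM in Os1400 and 13.2, 22, and 20.2 CPM in WT, and Os11g0696200 (ACLA-2, a subunit of ATP-citrate lyase, which makes cytosolic acetyl-CoA), with 157, 156, and 153 CPM in Os1400 and 21.3, 48.6, and 34.4 CPM in WT. Their log2 fold changes were 2.52 and 2.16. Ribosomal protein genes went both ways, with Os11g0168200 (L3B) and Os04g0605900 (L7) higher by log2 fold changes of 2.49 and 2.48 and Os05g0368300 (S4) and Os04g0691600 (S17) lower by -2.54 and -2.90.

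Gene families were counted by the protein domains in the authors' descriptions, which 10031 of the genes carry. Of 72 such families, those with at least 5 tested members and the highest shares of up-regulated (5 families) or down-regulated (6 families, with a tie) members are described, and since they were ranked by these shares, the counts are a description and carry no test. Over all genes tested, 6.93% were up and 9.56% down and the median log2 fold change was -0.04.

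More histone genes fell than rose in Os1400. Of 27 core histone genes tested, 12 fell, 1 rose, and the median log2 fold change was -0.60. Os01g0839500 (H2B.11) had 216, 276, and 159.8 CPM in Os1400 and 1216, 837, and 1010.3 CPM in WT (log2 fold change of -2.23, SE 0.28). Os08g0427700, a histone H2A, had 96.5, 109, and 69.7 CPM in Os1400 and 387, 232, and 344 CPM in WT. Os06g0130900, chosen after its value was seen, fell the most, by 3.16 on the log2 scale, with 2.82, 1.85, and 1.05 CPM in Os1400 and 19.9, 11.2, and 20.3 CPM in WT. The gene that rose, Os03g0279200, also carries the H2A domain and had 459, 475, and 306 CPM in Os1400 and 178, 211, and 156 CPM in WT (log2 fold change of 1.19). Of 8 linker histone genes, which bind the DNA between nucleosomes, 5 fell and 1 rose, with a median of -0.86. Os04g0253000 (named G1/S-phase gene H1) had 6.05, 5.90, and 6.04 CPM in Os1400 and 24.6, 20.3, and 30.4 CPM in WT. Os06g0130800 had 211, 179, and 238 CPM in Os1400 and 481, 336, and 785 CPM in WT, whereas Os07g0184800 was higher in Os1400, with 67.9, 58.2, and 54.7 CPM, against 5.18, 26.5, and 14.4 CPM in WT (log2 fold change of 1.97, and 2.61 without WT replicate 2). Histone genes are short (core histones had a median length of 781 bases), and with the length adjustment 9 core and 3 linker histone genes fell, with medians of -0.39 and -0.73. Without Os1400 replicate 1, 2, or 3, the number of core histones called down was 1, 3, and 2 and that of linker histones 0 in each, and without WT replicate 1 it was 8 and 2.

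Microtubule genes moved both ways. Of 15 tubulin genes, the subunits of microtubules with related FtsZ proteins, 5 fell and 1 rose, and the median log2 fold change was -0.51 (-0.55 with the length adjustment, under which the counts were again 5 and 1). Os03g0105600 (beta-tubulin 2) had 32.5, 27.3, and 19.98 CPM in Os1400 and 203, 120.2, and 91.4 CPM in WT, a log2 fold change of -2.38 (SE 0.35). Os05g0413200 (beta-tubulin 6) had 59.9, 54.9, and 45.7 CPM in Os1400 and 143, 123, and 185 CPM in WT (log2 fold change of -1.49). In the other direction, Os06g0671900 (beta-tubulin 3) had 169, 152, and 165 CPM in Os1400 and 46.8, 50.9, and 70.6 CPM in WT (log2 fold change of 1.53). Of 26 kinesins, motors that move along microtubules and organize the division apparatus, 9 rose and 1 fell, 23 had a log2 fold change above 0, and the median was 1.01. Os05g0154700 (SMALL AND ROUND SEED 3) had 131, 126, and 154 CPM in Os1400 and 34.6, 49.8, and 35.5 CPM in WT. Os05g0459400 (KIN10C) had 15.8, 18.1, and 15.9 CPM in Os1400 and 4.08, 2.99, and 2.81 CPM in WT. The log2 fold changes of this pair were 1.78 and 2.33. The kinesin that fell was Os08g0547500, with 11.9, 10.2, and 12.7 CPM in Os1400 and 26.0, 34.4, and 44.4 CPM in WT. Kinesin genes are long (a median of 2917 bases), and with the length adjustment 5 rose and 1 fell, with a median of 0.61. Without any 1 of the Os1400 libraries, 1 kinesin was called up and 1 tubulin down, and without WT replicate 1 the numbers were 6 and 2.

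The cell wall families described first are those with the most frequent calls. Of 14 cellulose synthase and cellulose synthase-like genes, 6 rose and 0 fell, and the median was 0.73. The count of 0 was the same with edgeR's quasi-likelihood test, DESeq2, and at an unadjusted p of 0.05, and 13 of the 14 had a log2 fold change above 0. Os07g0424400 (cellulose synthase A3), on chromosome 7 from 13741551 to 13747205, had 644, 466, and 820.1 CPM in Os1400 and 180.2, 253, and 267 CPM in WT (log2 fold change of 1.46, SE 0.28). Os12g0555600 (NARROW LEAF AND DWARF 1) had 57.4, 53.9, and 41.9 CPM in Os1400 and 10.4, 18.8, and 8.39 CPM in WT (log2 fold change of 2.02). Cellulose synthases A5, A6, and A8 rose by 0.84, 1.05, and 1.33, and Os01g0750300 (BRITTLE CULM 7) by 0.96, on the log2 scale. These are among the longest genes (a median of 3926 bases), and with the length adjustment only Os07g0424400 and Os12g0555600 passed, with a median of 0.28 over the family. The number up was 0, 2, and 0 without Os1400 replicate 1, 2, or 3 and 3 without WT replicate 1. Of 21 dirigent proteins, which guide lignan and lignin coupling in the wall, 6 fell and the median was -1.2. Os07g0107300 had 3.73, 3.96, and 4.99 CPM in Os1400 and 30.4, 29.9, and 23.2 CPM in WT (log2 fold change of -2.72). Os10g0398100 had 8.87, 4.42, and 7.78 CPM in Os1400 and 28.5, 18.9, and 44.9 CPM in WT. With the length adjustment 3 dirigent genes fell, with a median of -0.72, and without Os1400 replicate 1, 2, or 3 the number was 0, 1, and 1.

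Auxin genes rose and fell. Of 27 AUX/IAA and ARF genes, the repressors and transcription factors of auxin response, 7 rose and 2 fell, and the median was 0.20 (0.08 with the length adjustment, under which 6 rose and 2 fell). Besides IAA31, Os03g0633800 (IAA12) had 87.4, 82.8, and 116 CPM in Os1400 and 27.5, 19.96, and 15.3 CPM in WT. Os01g0236300 (auxin response factor 16) had 166, 141, and 164 CPM in Os1400 and 50.4, 46.1, and 53.5 CPM in WT. Their log2 fold changes were 2.19 and 1.65, and these 3 genes kept their calls without any single library. Os01g0231000 (IAA3) and Os01g0927600 (auxin response factor 2) fell by 0.97 and 0.74 on the log2 scale, with 219, 194, and 223 CPM in Os1400 and 429, 338, and 477 CPM in WT for the first. Of 7 PIN and PIN-like carriers, which export auxin from the cell or sort it within the cell, 2 fell. Os01g0818000 (PIN-likes 6a) had 94.9, 97.7, and 103 CPM in Os1400 and 247, 188, and 209 CPM in WT. Os01g0919800 (PIN5A) had 9.75, 9.44, and 7.94 CPM in Os1400 and 37.8, 27.2, and 23.5 CPM in WT. Both passed with the length adjustment and neither passed without Os1400 replicate 1, 2, or 3. Of 3 GH3 genes, which conjugate auxin to amino acids, Os01g0764800 (GH3-2) was the 1 called, chosen after its value was seen, with 6.80, 3.25, and 9.40 CPM in Os1400 and 38.1, 10.02, and 91.6 CPM in WT (log2 fold change of -2.84, and -1.91 without WT replicate 3, where it did not pass).

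Among ion pumps and transporters, 4 of 19 P-type ATPases rose and 2 fell, with a median of 0.16 (-0.30 with the length adjustment, under which 3 rose and 2 fell). Those that rose included calcium pumps. Os03g0281600 (endoplasmic reticulum-type Ca2+-ATPase 1) had 135, 143, and 143 CPM in Os1400 and 22.2, 39.1, and 35.4 CPM in WT, a log2 fold change of 2.12 (SE 0.27), and Os02g0176700 (Ca2+-ATPase 9) had 112, 102, and 134 CPM in Os1400 and 18.9, 52.6, and 17.2 CPM in WT (log2 fold change of 1.98, and 2.67 without WT replicate 2). The pair that fell were the proton pumps Os07g0191200 (H+-ATPase 2), with 26.0, 39.1, and 25.3 CPM in Os1400 and 92.0, 64.4, and 61.1 CPM in WT, and Os03g0100800 (H+-ATPase 8), with 1.35, 1.54, and 2.45 CPM in Os1400 and 9.43, 5.21, and 3.96 CPM in WT. All 7 ZIP transporters, which take up zinc and iron, had a log2 fold change below 0, and 2 fell, also with the length adjustment, namely Os05g0164800 (zinc transporter 6), with 62.8, 56.0, and 67.1 CPM in Os1400 and 142, 122, and 182 CPM in WT, and Os08g0207500 (zinc transporter 4), with 10.8, 13.9, and 10.4 CPM in Os1400 and 31.1, 42.7, and 28 CPM in WT. Without Os1400 replicate 1, 2, or 3, 1 ATPase in each fit was called up and 0 ZIP genes down, and without WT replicate 2 the numbers were 6 and 4.

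Of 5 HSP90 chaperones, 3 rose and 1 fell, with a median of 0.93. Os06g0716700 (rice 90-kDa heat shock protein) had 341, 314, and 311 CPM in Os1400 and 97.2, 142, and 96.1 CPM in WT (log2 fold change of 1.53). Os12g0514500 had 125, 159, and 125 CPM in Os1400 and 80.3, 62.3, and 43.6 CPM in WT. Os09g0482100 (heat shock protein 82B) was lower in Os1400, with 771, 937, and 690.4 CPM, against 1588, 1266, and 1374 CPM in WT (log2 fold change of -0.82). With the length adjustment 1 rose and 1 fell, and without Os1400 replicate 1, 2, or 3, 0, 1, and 1 rose.

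**Figure D3:**
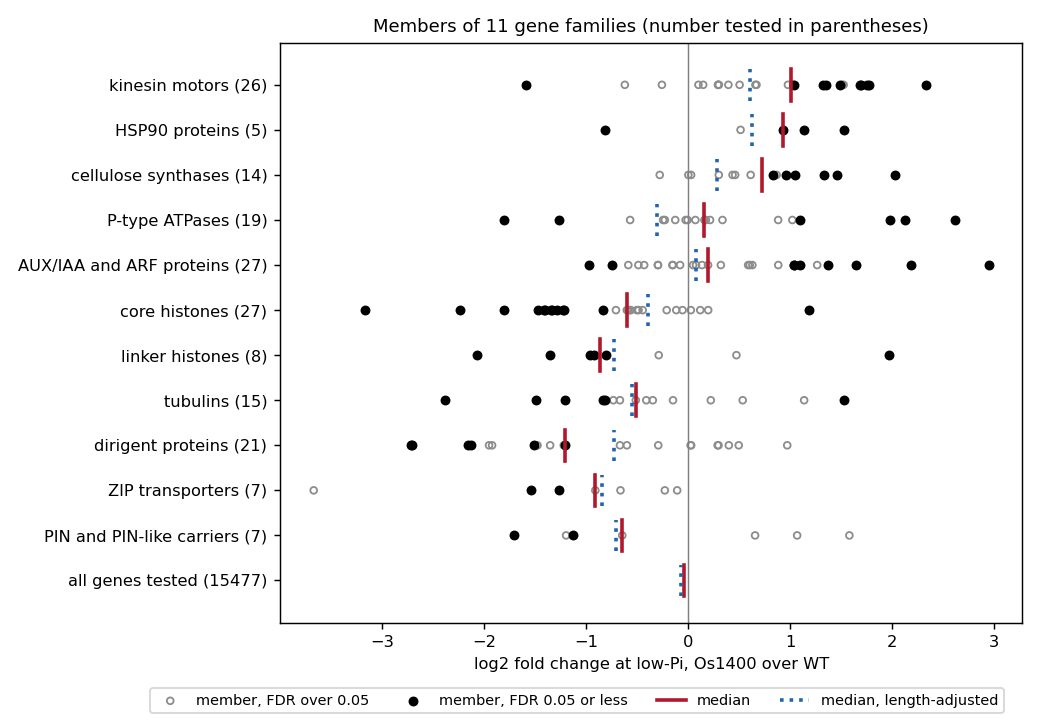
Log2 fold change at low-Pi, Os1400 over WT, on the x axis, of each tested member of 11 gene families, with members at an adjusted p of 0.05 or less as filled circles and the others as open circles. Red bars mark the median and blue dotted bars the median with the length adjustment, which moves the cellulose synthase median from 0.73 to 0.28 and the dirigent median from -1.2 to -0.72, while all genes lie at -0.04 and -0.07.

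Further families are given by their counts. Genes of phosphate starvation moved in both directions. Of 11 SPX proteins, 3 fell and 2 rose (3 and 1 with the length adjustment). The members below were chosen after their values were seen. Os06g0603600 (an SPX domain gene) had 253, 224, and 215 CPM in Os1400 and 871, 665, and 1089 CPM in WT (log2 fold change of -1.92) and kept its call without any single library, whereas Os02g0678200 (SPX-MFS protein 2, of a family of vacuolar phosphate transporters) rose by 1.81 on the log2 scale, with 27.1, 28.7, and 30.1 CPM in Os1400 and 6.95, 13.0, and 4.43 CPM in WT. The other SPX genes that fell were Os03g0406100 (SPX domain gene 5) and Os02g0202200 (SPX domain gene 2), by log2 fold changes of -2.06 and -1.37. SPX domain gene 2 was also called at +Pi (log2 fold change of -5.04). The other that rose was Os06g0129400 (SPX-MFS protein 3, log2 fold change of 0.91), which did not pass with the length adjustment. Among 42 carriers of the sugar transporter domain, which includes the PHT1 phosphate transporters, 6 fell and 0 rose by edgeR's quasi-likelihood test, with 3 up at an unadjusted p of 0.05 and 2 up by DESeq2 (7 fell with the length adjustment). Phosphate transporters 2, 6, and 9 were among those that fell, with log2 fold changes of -2.66, -0.98, and -3.81. Os08g0564000 (phosphate transporter 6) had 635, 499, and 425 CPM in Os1400 and 1152, 936, and 981 CPM in WT. Os06g0324800 (phosphate transporter 9) had 7.81, 6.50, and 14.9 CPM in Os1400 and 52.9, 37.2, and 319 CPM in WT. WT replicate 3 was far above the others for transporter 9, and for Os03g0150800 (phosphate transporter 2), which had 14.7, 4.16, and 13.9 CPM in Os1400 and 22.9, 37.4, and 146 CPM in WT. Without this library the log2 fold change was -2.22 for transporter 9 and -1.47 for transporter 2, which then did not pass (adjusted p of 0.0936 from edgeR). Of 37 metallophosphatases, the domain of purple acid phosphatases, 4 rose and 5 fell, also with the length adjustment. Both ammonium transporters tested fell, with log2 fold changes of -1.92 for Os05g0468700 (ammonium transporter 2;1) and -1.98 for Os04g0509600 (ammonium transporter 1;1), and both did with the length adjustment. Os04g0509600 had 11, 6.99, and 12.3 CPM in Os1400 and 28.6, 16.0, and 74.7 CPM in WT, kept its call in 1 of the 6 leave-one-out fits, and had a log2 fold change of -1.16 without WT replicate 3, and limma-voom called 1 of the pair. Of 23 NPF nitrate and peptide transporters 6 fell and 1 rose (7 and 1 with the length adjustment).

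Several defense and stress families held more genes that fell than rose, as did all genes tested (9.56% down and 6.93% up). The shares that fell were 27.3% of WRKY factors, 25.8% of late embryogenesis abundant proteins, and 17.6% of chitinases. Nearer to that of all genes were lipid transfer proteins (16.3%), glutathione S-transferases (15.4%), and heme peroxidases (13.6%). Of 33 WRKY factors, regulators of defense and nutrient responses, 9 fell and 1 rose, with a median of -0.93 (8 and 1 with the length adjustment). Os08g0235800 (WRKY 25), again chosen after its value was seen, had 52.7, 41.3, and 38.7 CPM in Os1400 and 257, 146, and 436 CPM in WT (log2 fold change of -2.66), and Os01g0750100 (WRKY 13), the 1 that rose, had 66.5, 53.8, and 79.3 CPM in Os1400 and 11.6, 8.50, and 32.0 CPM in WT (log2 fold change of 1.94, and 2.71 without WT replicate 3). Of 81 heme peroxidases, 11 fell and 5 rose (9 and 5 with the length adjustment), of 17 chitinases 3 fell (3), of 39 glutathione S-transferases 6 fell (5 fell and 2 rose), of 31 late embryogenesis abundant proteins 8 fell and 1 rose (7 and 1), and of 43 lipid transfer proteins 7 fell and 1 rose (2 and 2 with the length adjustment). Resistance proteins with an NB-ARC domain, a family of long genes, went the other way, with 10 of 81 up and 1 down, and 6 up and 3 down with the length adjustment. In gene expression machinery, 10 of 55 DEAD-box helicases rose and 0 fell by edgeR (2 fell at an unadjusted p of 0.05, 1 fell by DESeq2, and 3 rose and 1 fell with the length adjustment), and 35 of 214 ribosomal proteins fell and 11 rose (20 and 16 with the length adjustment). Protein kinases, the largest family, had 36 of 492 up and 33 down (26 and 45 with the length adjustment).

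Of the other cell wall families, expansins, which loosen walls, had 3 of 20 up and 3 down (3 and 2 with the length adjustment), and CASP-like proteins 3 of 25 up and 2 down. Of 14 XTH enzymes, which cut and rejoin xyloglucan, 3 fell, and of 25 laccases and multicopper oxidases 3 fell with a median of 0.08. Of 17 fasciclin-like proteins 4 fell, and with the length adjustment 1 fell and 1 rose. Among transcription factors, AP2/ERF genes had 2 of 47 up and 7 down, MYB-like genes 5 of 86 up and 7 down, and NAC genes 2 of 35 up and 4 down. The bZIP genes had 2 of 46 up and 3 down, GRAS and homeobox genes 2 up and 1 down each of 26 and 19, and bHLH genes 1 of 31 down. Other counts were 3 up and 7 down of 67 cytochrome P450 enzymes, 6 up and 6 down of 59 ABC transporters, 1 up and 3 down of 21 aquaporins, and 6 up and 3 down of 48 DnaJ proteins. There were 13 up and 11 down of 121 RNA recognition motif proteins, 4 up and 9 down of 65 small GTPases (7 and 5 with the length adjustment), and 1 up and 8 down of 32 ubiquitin-conjugating enzymes (1 and 4). Of 22 AMP-binding ligases 6 fell and 1 rose, of 40 aminotransferases 6 fell and 2 rose, and of 34 oxygenases that use 2-oxoglutarate 5 fell and 1 rose. The families not named here had at most 5 calls in either direction.

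The same genes were compared between Os1400 and WT at +Pi, in libraries that the low-Pi comparison does not share. Of 15469 genes with a row in both tables, 76 (0.491%) were up-regulated and 99 (0.64%) down-regulated at +Pi (edgeR, adjusted p of 0.05 or less). At an unadjusted p of 0.05 from edgeR, 907 of the 15469 genes were up and 888 down. DESeq2 called 181 up and 200 down. The family counts at +Pi below stand against these numbers. When the genotype effects at low-Pi and +Pi were tested against each other over all 12 libraries, the low-Pi effect was more positive in 1086 genes (7.02%) and more negative in 1153 genes (7.45%) (931 and 1105 with the length adjustment), and 1901 of the 2549 low-Pi calls among these genes (74.6%) were in either set. These calls were selected by the low-Pi contrast, which is also a part of the tested difference. A high share among them therefore follows in part from that selection and is no independent support. The fit over 12 libraries gives each gene 1 dispersion for all 4 groups, although their spread was unlike. Pairs of WT low-Pi libraries differed by a chi-square of 165.5 to 309.3 per gene, and pairs of Os1400 low-Pi libraries by 24.3 to 70.4. The SE of the difference was below that of the low-Pi effect for H3 (0.197 and 0.213) and above it for UGP1 (0.321 and 0.287). The numbers of differences may therefore be too high. Of the 59 genes named by rule, 51 had a difference between supplies, and 7 were themselves called at +Pi. Os03g0648400 (DnaJ A4), for example, had a log2 fold change of 0.04 (SE 0.12) at +Pi, and Os09g0553200 (UGP1) of -0.19 (SE 0.16). In the families described, 0 of 26 kinesins, 0 of 27 core histones, and 0 of 14 cellulose synthases were called at +Pi by edgeR's quasi-likelihood test or DESeq2, with 5 core histones lower and no kinesin or cellulose synthase past an unadjusted p of 0.05. The core histone family is a list of genes with that domain in the description and leaves out the histone genes described otherwise, such as H3, H3.2A, the histone-fold gene Os09g0553100, and Os10g0539500 (histone H4). These 4 genes fell at +Pi, where their log2 fold changes were -0.56, -0.58, -0.93, and -0.51. Of the other families edgeR called 0 members at +Pi among tubulins, AUX/IAA and ARF genes, P-type ATPases, PIN genes, dirigent proteins, ZIP transporters, and HSP90 genes. At an unadjusted p of 0.05 these had 6 tubulins lower (2 by DESeq2) and 4 AUX/IAA and ARF genes lower (1 by DESeq2). They also had 3 P-type ATPases higher and 1 lower (1 higher by DESeq2) and 1 PIN gene higher and 2 lower (1 lower by DESeq2). There were 3 dirigent genes lower and 1 ZIP gene higher (0 of both by DESeq2), and HSP90 genes had 0 in all 3 counts. Of 8 linker histones 2 were called at +Pi by edgeR and 3 by DESeq2, all lower. The pair called by edgeR was Os04g0253000 and Os06g0130800, with log2 fold changes at +Pi of -1.75 and -0.94, close to those at low-Pi (-2.06 and -1.35), and their differences between supplies did not pass (adjusted p of 0.556 and 0.461 from edgeR).

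**Figure D4:**
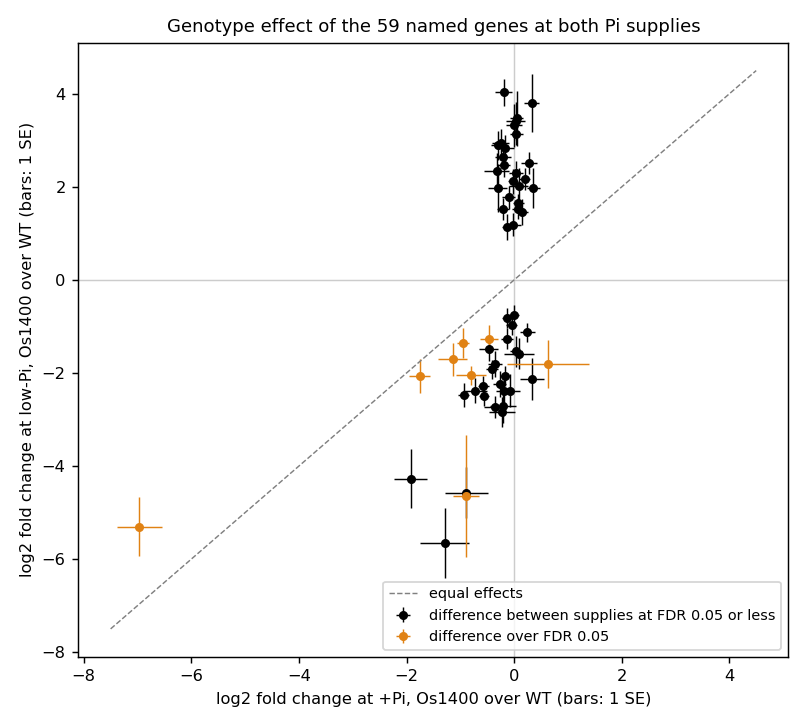
Log2 fold change, Os1400 over WT, of the 59 named genes at low-Pi (y axis) against +Pi (x axis), with bars of 1 SE. Black points are the 51 genes whose effects differ between supplies at an adjusted p of 0.05 or less, most of them near 0 on the x axis, orange points the others, with thionin 7 at -6.96 and -5.30 nearest to the dashed line of equal effects among the large changes.

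Across the 4 groups, the WT low-Pi libraries were the ones apart for most of the called genes. Over the 15469 genes, the group whose mean log2 CPM lay farthest from the median of the 4 groups was WT at low-Pi in 60.9%, Os1400 at low-Pi in 22.8%, and a +Pi group in the rest. Among genes called up it was WT at low-Pi in 86.8% and Os1400 at low-Pi in 13.0%, and among genes called down 83.6% and 15.4%. The called genes were selected for a difference between the low-Pi groups. That a +Pi group was rarely the one apart among them follows from this selection. On the FPKM scale, FISH BONE averaged 63.2 ± 14.7 FPKM in Os1400 and 73.4 ± 1.97 FPKM in WT at +Pi, and 75.5 ± 3.10 FPKM in Os1400 and 12.6 ± 2.56 FPKM in WT at low-Pi (SD, n = 3 each). Histone H3 (Os03g0390600) averaged 222 ± 14.2 FPKM in Os1400 and 329 ± 15.9 FPKM in WT at +Pi, and 193 ± 7.66 FPKM in Os1400 and 1132 ± 169 FPKM in WT at low-Pi. Lactate dehydrogenase averaged 6.2 ± 0.861 FPKM in Os1400 and 7.24 ± 1.59 FPKM in WT at +Pi, and 6.09 ± 1.39 FPKM in Os1400 and 45.6 ± 9.45 FPKM in WT at low-Pi. For FISH BONE and lactate dehydrogenase the 3 other groups lay close together, whereas H3 was also lower in Os1400 at +Pi, by a log2 fold change of -0.56. Not all named genes followed this pattern. DnaJ A4 averaged 174 ± 14.9 FPKM in Os1400 and 170.0 ± 27.4 FPKM in WT at +Pi, and 84.1 ± 16.0 FPKM in Os1400 and 9.85 ± 0.872 FPKM in WT at low-Pi, so both low-Pi groups were below both +Pi groups. The sums of FPKM over all genes were 698135 to 739662 in Os1400 low-Pi libraries and 883018 to 1169409 in WT low-Pi libraries.

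**Figure D5:**
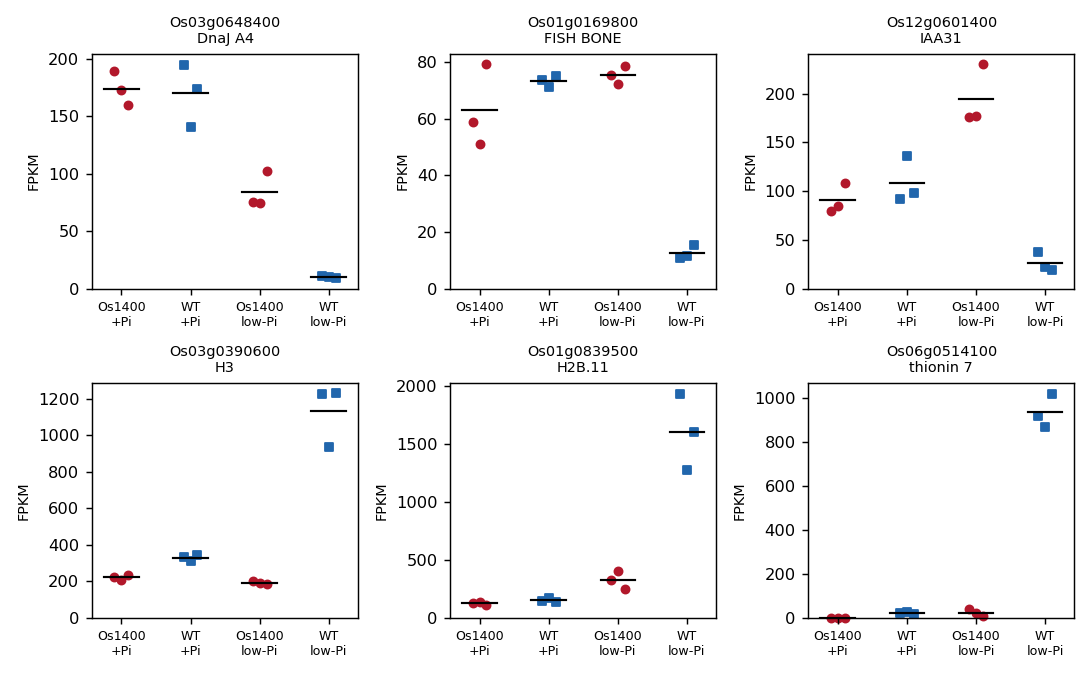
FPKM of 6 genes in all 12 libraries, with 1 point per library (red circles Os1400, blue squares WT) and black bars for the mean of 3, on linear axes from 0. In each panel the WT low-Pi libraries stand apart from the others, below them for DnaJ A4, FISH BONE, and IAA31 and above them for H3, H2B.11, and thionin 7.

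A total of 67 genes were called at both supplies, 60 of them in the same direction (50 down and 10 up), a share of 2.35% of the low-Pi calls and 34.3% of the +Pi calls. Thionin 7 had the largest fold change of them at +Pi, with 0.162 ± 0.0353 FPKM in Os1400 and 20.8 ± 3.11 FPKM in WT at +Pi (log2 fold change of -6.96), and 22.7 ± 17.5 FPKM in Os1400 and 936 ± 76.6 FPKM in WT at low-Pi. The genes that follow were chosen after their values were seen. Os07g0432201, which has no name in the files, had the largest fold change of all genes tested at low-Pi, with 0.815, 0.314, and 0.413 CPM in Os1400 and 22.2, 11.1, and 122 CPM in WT (log2 fold change of -6.65, SE 1.03, and -5.03 without WT replicate 3), and was lower at +Pi too (-2.63). Its Os1400 values at low-Pi lay close to the limit of 10 counts, so the size of this fold change is uncertain. Os11g0694100 (wall-associated kinase 123) was higher at both supplies, with log2 fold changes of 2.46 at low-Pi and 2.53 at +Pi. Os01g0127000 (LOW PHOSPHATE ROOT 3, a multicopper oxidase of the family that adjusts root growth to low Pi in Arabidopsis) was lower at both, with -2.99 at low-Pi and -1.22 at +Pi, and its CPM at low-Pi were 39.4, 40.8, and 26.6 in Os1400 and 238, 162, and 449.8 in WT. In 7 genes the direction was opposite. Os11g0703900 (heat shock protein 70) rose at low-Pi, with 2272, 2630.2, and 2195 CPM in Os1400 and 885, 1016, and 1187 CPM in WT (log2 fold change of 1.2), and fell at +Pi (-0.54). The phosphoenolpyruvate carboxykinase gene Os10g0204400 had log2 fold changes of 1.36 at low-Pi and -2.30 at +Pi, and the multidrug and toxic compound extrusion gene Os05g0554000 of 1.95 and -1.34. The cytokinin response regulators Os11g0143300 and Os12g0139400 (type A 9 and 10, near-identical copies whose reads could be shared) fell at low-Pi (-1.60 and -1.33) and rose at +Pi (1.06 and 1.17). The remaining pair, Os01g0132766 and Os06g0606700, fell at low-Pi and rose at +Pi. The low-Pi call of each of these 7 genes was lost in 3 or more of the 6 leave-one-out fits, and 4 of the 7 did not pass at low-Pi with the length adjustment.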

How the data were processed

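Roots of Os1400-12SIII and WT rice (cv. Nipponbare) were sequenced by the authors as paired-end libraries, 3 per genotype at each phosphate supply. The authors aligned reads with HISAT2 (2.0.5) and deposited raw counts per gene from featureCounts (1.5.0-p3), in 1 table per comparison, and a table of FPKM values for 12 libraries. The genome build and annotation release were not given in the sources used here, and neither was the strandedness, so reads of overlapping or near-identical genes may be shared. Columns of the authors' own DESeq2 comparisons (fold changes and p-values) were not used, nor were 28 columns of normalized counts, group means, and repeated FPKM.

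Here, genes with at least 10 counts in each of the 6 low-Pi libraries were kept (15477 of 31952), normalized by TMM, and tested by edgeR (4.0.16, R 4.3.3) quasi-likelihood fits with Benjamini-Hochberg adjustment over all of them. CPM used TMM factors. The same genes were fitted at +Pi (15469), and the difference of effects over 12 libraries. SE was the absolute log2 fold change over the square root of F. Named genes were the 10 with the smallest p and the 5 with the largest fold change in each direction among called genes with a name or domain, and up to 2 called members per direction of each described family. Alternatives were DESeq2 (1.42.0), limma-voom (limma 3.58.1), robust dispersion, other normalizations and filters, a 12-library fit, a replicate block, each library left out, and the length adjustment (lowess, span 0.3). The fits were also run on simulated counts, with 1 dispersion per gene for both genotypes and no length trend. The simulation therefore says nothing of how the fits handle the length trend or the wider spread of the WT low-Pi libraries. The members and lists were chosen with earlier results of these data known.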

Additional observations from a re-analysis of the deposited data

Results flagged for a closer look

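For 51 of the 59 genes named by rule, the Os1400 effect at low-Pi differed from that at +Pi in edgeR's interaction test over 12 libraries (adjusted p of 0.05 or less). The values are the log2 fold change, Os1400 over WT, at low-Pi minus that at +Pi. The genes were named from the low-Pi contrast, which is also a part of the difference, so these values describe the genes and are no independent support. The test used 1 dispersion per gene for all 4 groups, although the WT low-Pi libraries spread more than the Os1400 low-Pi libraries. The number of genes that passed may therefore be too high. In 10 genes that were called up at low-Pi by the smallest p, the difference was 4.22 for UGP1, 3.10 for DnaJ A4, 2.84 for FISH BONE, 2.23 for metallothionein 2A, 3.00 for Os03g0712700, 3.19 for IAA31, 2.65 for U2AF65A, 1.97 for Os06g0558700, 3.19 for Os01g0547133, and 2.27 for Os04g0586200. Of the down-regulated genes of smallest p, 9 differed, by -1.94 for H3, -2.38 for the aminotransferase Os05g0475400, -1.71 for H3.2A, -1.54 for the histone-fold gene Os09g0553100, -1.90 for the mitochondrial ATP synthase subunit, -2.21 for class III peroxidase 90, -1.52 for Os01g0851600, -1.65 for uclacyanin-like protein 20, and -2.63 for lactate dehydrogenase. The 3 genes with the largest decreases that differed had -4.36 for fatty acid desaturase 2-3, -3.69 for the chitinase Os10g0416500, and -2.34 for germin-like protein 8-8. The 4 with the largest increases had 3.47 for the mitochondrial carrier, 3.43 for the armadillo repeat gene, 3.38 for trichome birefringence-like 32, and 3.33 for the endomembrane gene. Among 4 histone genes of the families the values were -1.98 for H2B.11, -1.46 for the H2A gene Os08g0427700, 1.19 for the H2A gene Os03g0279200, and 2.28 for the linker histone Os07g0184800. In 6 microtubule genes they were -2.31 for beta-tubulin 2, -1.02 for beta-tubulin 6, 1.73 for beta-tubulin 3, 1.87 for the kinesin SMALL AND ROUND SEED 3, 2.64 for KIN10C, and -1.68 for the kinesin Os08g0547500. In 4 wall genes they were 1.32 for cellulose synthase A3, 1.93 for NARROW LEAF AND DWARF 1, -2.51 for the dirigent gene Os07g0107300, and -2.46 for the dirigent gene Os10g0398100. The 4 auxin genes had -0.75 for auxin response factor 2, 1.57 for auxin response factor 16, -0.92 for IAA3, and -1.38 for PIN-likes 6a. The 4 transporter genes had 2.14 for the endoplasmic reticulum-type Ca2+-ATPase 1, 1.62 for Ca2+-ATPase 9, -1.13 for zinc transporter 6, and -1.58 for zinc transporter 4. The 3 HSP90 genes had 1.45 for the rice 90-kDa heat shock protein, 1.26 for Os12g0514500, and -0.69 for heat shock protein 82B.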

How the results depend on the processing

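The direction of the 59 named genes was the same under all alternatives run, and their calls were lost most often without an Os1400 library (27, 21, and 23 genes without Os1400 replicate 1, 2, and 3). The counts of calls moved by over 1.5 times under these settings. DESeq2 called 1813 genes up and 2421 down at low-Pi, filterByExpr (25426 genes tested) 3165 up, no filter 557 down, and the 12-library fit 2599 up and 3027 down. With DESeq2, +Pi gave 181 up and 200 down, and 1819 genes had a more negative effect at low-Pi. Leaving out 1 library at a time gave 64 to 1684 up and 104 to 2110 down at low-Pi, 38 to 67 up and 50 to 114 down at +Pi, and 551 to 2204 genes with a more positive and 593 to 2128 with a more negative effect at low-Pi. A fit with 2 remaining libraries in a genotype has fewer residual degrees of freedom, whichever genotype loses a library. Without a WT library, the low-Pi calls were 1017 to 1684 up and 1152 to 2110 down. Without an Os1400 library, they were 64 to 124 up and 104 to 225 down. Pairs of WT low-Pi libraries also differed more from each other than pairs of Os1400 low-Pi libraries. With the replicate number as a block, 1846 genes were up and 2080 down at low-Pi. Same-numbered libraries deviated with correlations of -0.0216, 0.371, and 0.451, and Os1400 replicate 1 correlated best with WT replicate 3, so the numbers were not taken as a pairing. The cause of these changes was not tested. The main comparison says nothing of the 8969 left-out genes that had at least 10 counts in all Os1400 libraries but not in all WT libraries, of which 2171 were at 0 in all 3 WT libraries. The filterByExpr fit covered some of the genes left out, and 897 of its 3165 genes called up were among the main calls.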
